A study of Mus musculus with 6 samples.

Results

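The expression table of B16.F10 cells held 99 transcripts, of 76 gene identifiers, that carried a locus number from transcript assembly (XLOC) where the other rows carried an Ensembl gene identifier. They were chosen by that identifier alone, out of 15905 transcripts of 8513 gene identifiers, and the remaining 15806 rows all carried an Ensembl gene identifier (ENSMUSG). B16.F10 is an established pigmented mouse melanoma line, labelled as malignant melanocytic cells of genotype WT. The simvastatin group was exposed to 3.5 µM simvastatin for 24 h and the control group received no treatment, with 3 samples in each, all of the same line and the same labelled batch. Simvastatin inhibits HMG-CoA reductase and so lowers the supply of mevalonate, the precursor of cholesterol and of the prenyl groups that anchor small GTPases to membranes. For each transcript the table gives 1 value per group, and its unit is not stated. No value per sample was used, so no SD could be computed and the depth behind each value is unknown.

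The working label of these rows, unannotated loci, did not hold for their names. All 99 rows carried a name and a protein description, made of 50 distinct names and 53 distinct descriptions. The names were written in capitals in the style of protein database entries. None of the 99 descriptions credited the mouse gene nomenclature database, as 15795 of the 15806 Ensembl rows did. By name they fell into 2 classes. Proteins of retroviruses and LINE-1 elements gave the names of 33 transcripts, of 28 gene identifiers, and 43 cellular proteins those of 66 transcripts, of 48 gene identifiers. Not every description names its class: the 33 include 4 transcripts described as IgE-binding protein, which is derived from a retroviral element, and the 66 include 3 named RTL8C, a cellular protein described as retrotransposon Gag-like.

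Retroelements are stretches of the genome that copy themselves through an RNA intermediate. Endogenous retroviruses code for Gag, the structural core protein, Pol, which holds the reverse transcriptase, and in some families Env, the envelope protein. Intracisternal A-particles (IAP) are a mouse family of this kind whose particles stay inside the cell, and LINE-1 elements lack the long terminal repeats of retroviruses and code for an RNA-binding protein (ORF1) and a reverse transcriptase (ORF2). B16 melanoma cells are known to make a retrovirus of the murine leukaemia virus type. Retroelements are present in many near-identical copies, so reads from one copy can be counted at another, and the value of a single locus is uncertain.

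The identifiers themselves separated the 2 classes. Of the 66 transcripts with cellular names, 64 carried XLOC numbers between 17952 and 18076, which held none of the 33 retroelement transcripts. The same 64 rows had assembled transcript numbers from 28988 to 29165, and no Ensembl row of the table had a number in that range. The 2 cellular transcripts outside it shared 1 locus, XLOC_007380, named for a zinc finger protein (ZN420).

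The levels of the XLOC transcripts were close to those of the Ensembl rows. The mean of both group values had a median of 6.46 over the XLOC transcripts and of 6.08 over the Ensembl rows. A mean over 10 was seen for 37 XLOC transcripts (37.4%) and for 34.3% of the Ensembl rows, and a mean under 1 for 4 XLOC transcripts (4.04%) and for 3.97% of the Ensembl rows. The Ensembl rows that were also assembled from reads, 4160 in number, were lower, with a median of 4.03. With transcripts summed per gene identifier the order turned, and XLOC loci had the lower median, with a difference in log2 level of -0.58. Because the lengths of the assembled transcripts and any correction for length are not given, levels of different transcripts can be set side by side only as listed. The XLOC transcripts together summed to 1806 with simvastatin and 1569 in control, 0.525% and 0.398% of the table totals of 344210 and 394749. These shares depend on the totals, which hold single Ensembl rows as high as 17204 with simvastatin and 21426 in control. The simvastatin total was the lower one, although the median log2 ratio of the Ensembl rows was 0.02.

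No XLOC transcript was listed at 0 in either group, which at 99 rows allows a share of up to 3.03%. Of the Ensembl rows 0.652% were listed at 0 in a group, 58 rows in simvastatin and 45 in control, so a difference was not detectable with 99 rows. The lowest values were 0.14 with simvastatin, for a ZN420 transcript, and 0.05 in control, for 2 transcripts named CELF1. Every row of the table had a value of at least 0.71 in 1 of the groups (1.07 over the XLOC transcripts). A transcript near 0 in one group therefore had to be higher in the other to be listed.

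The ratio of simvastatin to control leaned upwards in the XLOC transcripts. The log2 ratio had a median of 0.22 over the 99 transcripts and of 0.02 over the 15703 Ensembl rows with both values above 0. Higher values with simvastatin were listed for 62 XLOC transcripts (62.6%) and lower ones for 37, and 50.9% of the Ensembl rows were higher. The totals of the groups differ, and dividing each value by its group's total would add 0.20 to every log2 ratio. It would put 74 XLOC transcripts (74.7%) and 61.0% of the Ensembl rows on the higher side, and would turn the direction of 12 XLOC transcripts, none of them called by the authors or past an adjusted p of 0.05. All directions given here are those of the values as listed. These shares are descriptions with no test, since transcripts of the same libraries are not replicates.

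The spread of the ratios was like that of the Ensembl rows. The interquartile range of the log2 ratio was 1.09 over the XLOC transcripts, against 1.02 over all Ensembl rows and 1.30 over the assembled Ensembl rows. A change past 2-fold was listed for 35 XLOC transcripts (35.4%), 26.2% of the Ensembl rows and 35.6% of the assembled ones. The spread narrowed with the level in both. Between mean values of 1 and 3 the interquartile range was 2.17 over 28 XLOC transcripts and 1.91 over the Ensembl rows, and from 10 upwards it was 0.70 over 37 XLOC transcripts and 0.64 over the Ensembl rows.

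**Figure D1:**
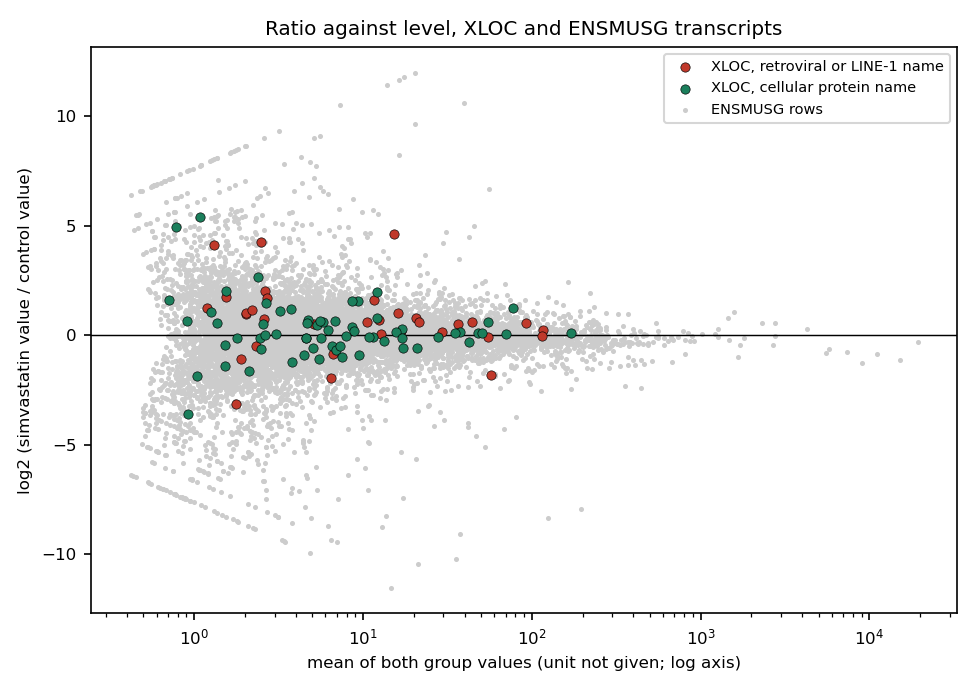
The log2 ratio of the simvastatin to the control value (vertical axis) is plotted against the mean of both group values (log axis, unit not given), with 1 point per transcript: red for XLOC transcripts with retroviral or LINE-1 names, green for those with cellular names and grey for Ensembl rows with both values above 0. The XLOC points lie within the cloud of Ensembl rows, their log2 ratios run from -3.60 to 5.40, and both narrow towards high levels.

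The widest ratios came from transcripts with a low value in one group. Of the 10 XLOC transcripts past 4-fold, 8 were higher and 2 lower. For 2 of the 10 (20%), LIN1 and NMES1, the authors' deposited table gave an unadjusted p under 0.05. The median smaller group value of the 10 was 0.305. The 1514 Ensembl rows past 4-fold with both values above 0 were alike. The authors' deposited table gave an unadjusted p under 0.05 for 17.2% of them, and their median smaller value was 0.35. A transcript named for Gag polyprotein (XLOC_018700) stood at 29.3 with simvastatin, against 1.19 in control (p = 0.364 in the authors' deposited table). The 2 CELF1 transcripts with a control value of 0.05, of an RNA-binding protein that acts in splicing and mRNA decay, stood at 2.11 and 1.52 with simvastatin (p = 0.193 and 0.185 in the authors' deposited table). The other 2 transcripts of the same CELF1 locus were on the lower side, at 4.99 and 3.51 with simvastatin, against 10.0 and 7.43 in control. Summed over its 4 transcripts the locus stood at 12.1 with simvastatin and 17.6 in control. Of the 20 XLOC loci with several transcripts, 9 held transcripts in opposite directions. The same count was not made for Ensembl genes, so it cannot be read as particular to these loci.

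By the authors' adjusted p under 0.05, 2 XLOC transcripts rose and 2 fell with simvastatin, 4 of 99. Over all 15905 rows the authors' deposited table called 2.09% at this threshold, 1.11% higher and 0.987% lower, so the count rests on few transcripts and is near that background. A transcript named for myeloid-associated differentiation marker, MYADM, a membrane protein of lipid rafts (XLOC_018033), rose 2.39-fold, with 109.5 for simvastatin and 45.9 for control (adjusted p = 0.042 in the authors' deposited table). A transcript named for IAP Pol (XLOC_013704) rose 1.55-fold, with 26.1 for simvastatin and 16.9 for control (adjusted p = 0.041 in the authors' deposited table). The transcript named GILT, the gamma-interferon-inducible thiol reductase of lysosomes (XLOC_017969), stood at 13.7 with simvastatin and 20.8 in control, and the authors' deposited table gives a signed fold of -1.52 with an adjusted p = 0.045. The transcript named RAPSN, the synapse protein that clusters acetylcholine receptors at the nerve-muscle junction (XLOC_017973), stood at 6.02 with simvastatin and 8.57 in control, and the authors' deposited table gives a signed fold of -1.42 with an adjusted p = 0.035. The authors' own call left RAPSN out.

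The yes or no call in the authors' deposited table was wider: over the whole table, called rows had folds of 1.5 or more and adjusted p-values as high as 0.2. It covered 22 of the 99 XLOC transcripts (22.2%), against 9.5% of all rows. These were 16 higher (16.2%, against 5.13% of all rows) and 6 lower ones (6.06%, against 4.37%). An unadjusted p under 0.05 was listed for 31 XLOC transcripts (31.3%, against 19.6% of all rows), with 22 higher (22.2%, against 9.42%) and 9 lower (9.09%, against 10.2%). Several of these transcripts share a locus or a name, as the 3 of MYADM and the 3 of AHNK2 do, so the counts are not of independent genes.

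Of the 33 transcripts with retroelement names, 25 were listed higher with simvastatin (75.8%, against 50.9% of the Ensembl rows) and 8 lower, with a median log2 ratio of 0.60. Without the 4 IgE-binding protein transcripts the share listed higher was 72.4%, and with the 3 RTL8C transcripts added it was 72.2%. By the adjusted p 1 of the 33 rose (3.03%, against 1.11% of all rows) and none fell (against 0.987%). At an unadjusted p under 0.05 the authors' deposited table lists 9 of them higher (27.3%, against 9.42% of all rows) and 1 lower (3.03%, against 10.2%). The authors' own call covered 6 higher (18.2%, against 5.13% of all rows) and 1 lower (3.03%, against 4.37%). The summed values were 783 with simvastatin and 675 in control, 1.16 times as high with simvastatin.

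All 3 LINE-1 transcripts were listed higher. The ORF1 transcript (XLOC_000038) stood at 26.2 with simvastatin and 15.2 in control, with an adjusted p printed as 0.05 in the authors' deposited table, which was not counted as under 0.05. The LINE-1 reverse transcriptase homolog, LIN1 (XLOC_017286), stood at 4.22 with simvastatin and 1.03 in control (adjusted p = 0.086 in the authors' deposited table). For the ORF2 transcript the values were 4.11 with simvastatin and 1.28 in control (adjusted p = 0.54 in the authors' deposited table).

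The IAP transcripts included some of the highest XLOC levels. Of the 3 IAP Gag transcripts, XLOC_018638 stood at 125.4 with simvastatin and 107.4 in control, and XLOC_018493 at 109.5 with simvastatin and 75.1 in control (adjusted p = 0.09 and 0.199 in the authors' deposited table). The third was low, at 1.67 with simvastatin and 0.71 in control. All 3 were thus listed higher with simvastatin, and none passed.

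Among the 6 IAP Pol transcripts 4 were listed higher and 2 lower. Beside the one that rose, XLOC_005493 stood at 53.5 with simvastatin and 35.5 in control (adjusted p = 0.058 in the authors' deposited table), while XLOC_018636 stood at 54.0 with simvastatin and 56.8 in control. The widest gap was on the lower side, where XLOC_002947 stood at 25.1 with simvastatin and 89.2 in control (p = 0.367 in the authors' deposited table). The sum over the 6 was 168 with simvastatin and 204 in control, on the other side from 4 of its 6 members. The 4 transcripts named for IgE-binding protein, a protein derived from an IAP element, were all listed higher. The one with the smallest p, XLOC_018725, stood at 21.5 with simvastatin and 10.6 in control (adjusted p = 0.053 in the authors' deposited table).

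The 17 transcripts named for Gag-Pol, Gag or Env without the IAP name held 11 listed higher and 6 lower, while 50.9% of the Ensembl rows were higher. The 11 Gag-Pol transcripts, the largest group of retroelement names, were almost evenly split. They held 6 higher and 5 lower, with a median log2 ratio of 0.15. All 3 Gag transcripts were higher, and of the 3 Env transcripts 2 were higher and 1 lower. None of the 17 had an adjusted p under 0.05. Of all rows 2.09% did, so 17 transcripts are too few to show a lower share. In the authors' deposited table an unadjusted p under 0.05 was given for 1 higher and 1 lower transcript among them (against 9.42% and 10.2% of all rows). The higher one was an Env transcript (XLOC_000944), at 17.7 with simvastatin and 5.72 in control (adjusted p = 0.065 in the authors' deposited table). The lower one was a Gag-Pol transcript (XLOC_004507), at 4.76 with simvastatin and 8.51 in control (adjusted p = 0.09 in the authors' deposited table). The most abundant Gag-Pol transcript (XLOC_001026) had nearly equal values, 113.6 with simvastatin and 116.7 in control (adjusted p = 0.63 in the authors' deposited table). The transcripts of the other Env locus (XLOC_002206) lay on opposite sides, 1 at 2.66 with simvastatin and 10.3 in control and the other at 2.48 with simvastatin and 0.14 in control.

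**Figure D2:**
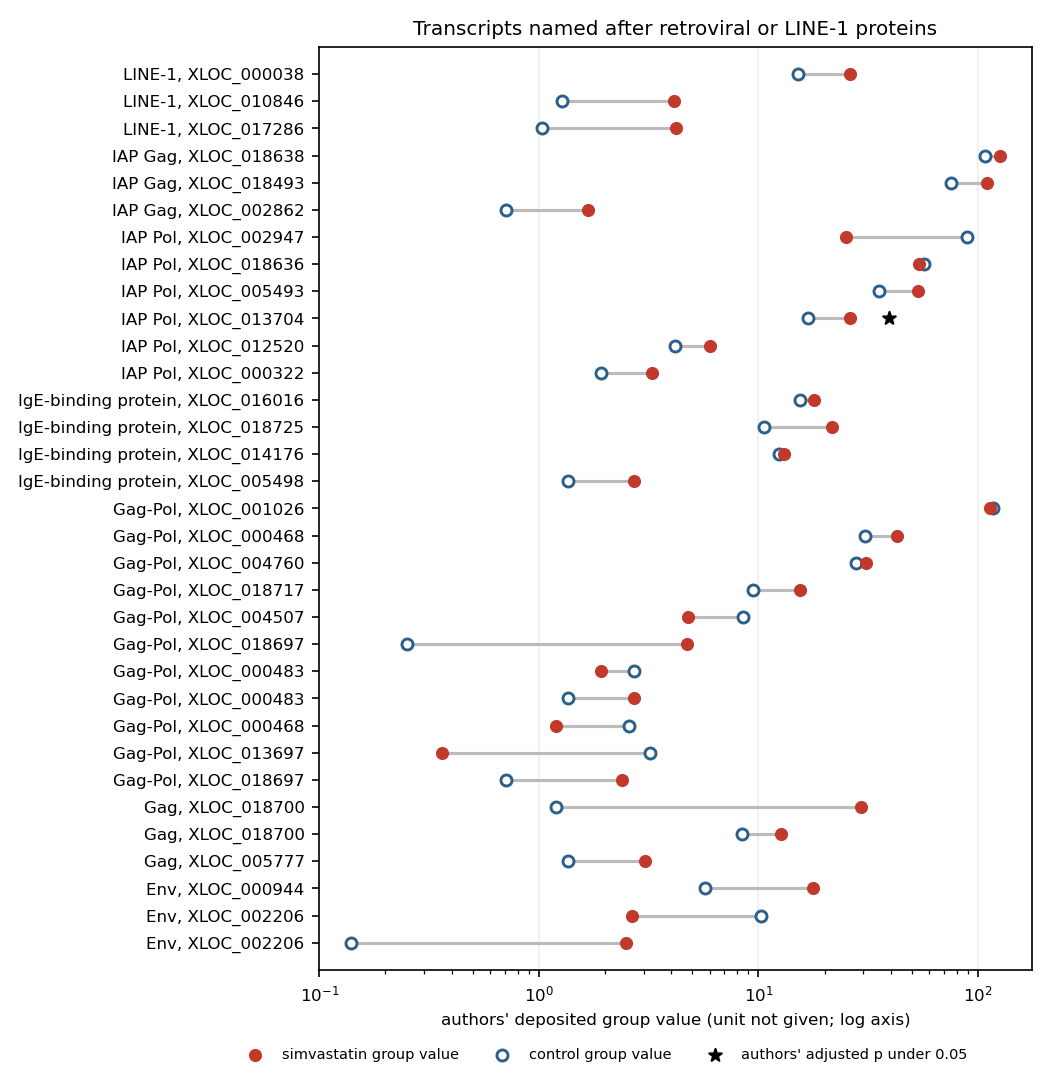
Group values of the 33 XLOC transcripts with retroviral or LINE-1 names, on a log axis in a unit that is not given, with red points for simvastatin, open blue points for control and a grey line joining both values of a transcript. In 25 of the 33 the simvastatin point lies to the right, and the star marks the 1 transcript with an adjusted p under 0.05, IAP Pol of XLOC_013704.

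Of the 66 transcripts with cellular names, 37 were listed higher with simvastatin (56.1%, against 50.9% of the Ensembl rows) and 29 lower, with a median log2 ratio of 0.11. By the adjusted p 1 rose (1.52%, against 1.11% of all rows) and 2 fell (3.03%, against 0.987%). At an unadjusted p under 0.05 the authors' deposited table lists 13 of them higher (19.7%, against 9.42% of all rows) and 8 lower (12.1%, against 10.2%). The authors' own call covered 10 higher (15.2%, against 5.13% of all rows) and 5 lower ones (7.58%, against 4.37%). The summed values were 1023 with simvastatin and 894 in control. Most of that difference came from 2 names, MYADM and AHNK2. MYADM summed to 127 with simvastatin and 52.3 in control, and AHNK2 to 37.1 with simvastatin and 10.9 in control.

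On the higher side, 6 of the 10 calls were of transcripts named MYADM or AHNK2. All 3 MYADM transcripts, of 2 loci, were called. Beside the one that rose, the second transcript of XLOC_018033 stood at 12.8 with simvastatin and 4.34 in control, and that of XLOC_018038 at 4.43 with simvastatin and 2.04 in control (adjusted p = 0.163 and 0.089 in the authors' deposited table). The transcript of XLOC_018038 was also the 1 XLOC row, and the 1 MYADM row, in the authors' deposited table of 46 transcripts linked to aggressiveness.

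All 3 transcripts named for AHNAK2, a very large scaffold protein found at the plasma membrane, were called as well. XLOC_017990 stood at 19.3 with simvastatin and 4.82 in control, with an adjusted p printed as 0.05 in the authors' deposited table. XLOC_017991 stood at 13.9 with simvastatin and 4.67 in control, and XLOC_017989 at 3.91 with simvastatin and 1.41 in control (adjusted p = 0.122 and 0.092 in the authors' deposited table). None of the 3 passed the threshold of 0.05.

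The other higher calls were each of 1 transcript. NMES1, a small protein first described in oesophageal mucosa, stood at 2.48 with simvastatin and 0.61 in control (adjusted p = 0.095 in the authors' deposited table). EHD3, an ATPase of endosome recycling, stood at 15.3 with simvastatin and 8.95 in control (adjusted p = 0.057 in the authors' deposited table). The B56 beta subunit of protein phosphatase 2A (2A5B), which directs the phosphatase to its substrates, stood at 5.80 with simvastatin and 3.60 in control, and podoplanin, a mucin-type membrane glycoprotein, at 8.33 with simvastatin and 5.37 in control (adjusted p = 0.122 and 0.163 in the authors' deposited table).

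On the lower side 4 transcripts were called beside GILT. RANG, a Ran-binding protein of nuclear transport, stood at 2.25 with simvastatin and 5.32 in control (adjusted p = 0.128 in the authors' deposited table). Nucleoporin Nup43, of the nuclear pore, stood at 6.71 with simvastatin and 12.4 in control (adjusted p = 0.096 in the authors' deposited table). DGCR8, the partner of Drosha in microRNA processing, stood at 5.28 with simvastatin and 8.50 in control (adjusted p = 0.164 in the authors' deposited table). Proline dehydrogenase, a mitochondrial enzyme, stood at 3.13 with simvastatin and 5.82 in control (adjusted p = 0.095 in the authors' deposited table). ATAD2, a chromatin protein with a bromodomain, was not called and stood at 16.8 with simvastatin and 24.9 in control (adjusted p = 0.055 in the authors' deposited table).

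**Figure D3:**
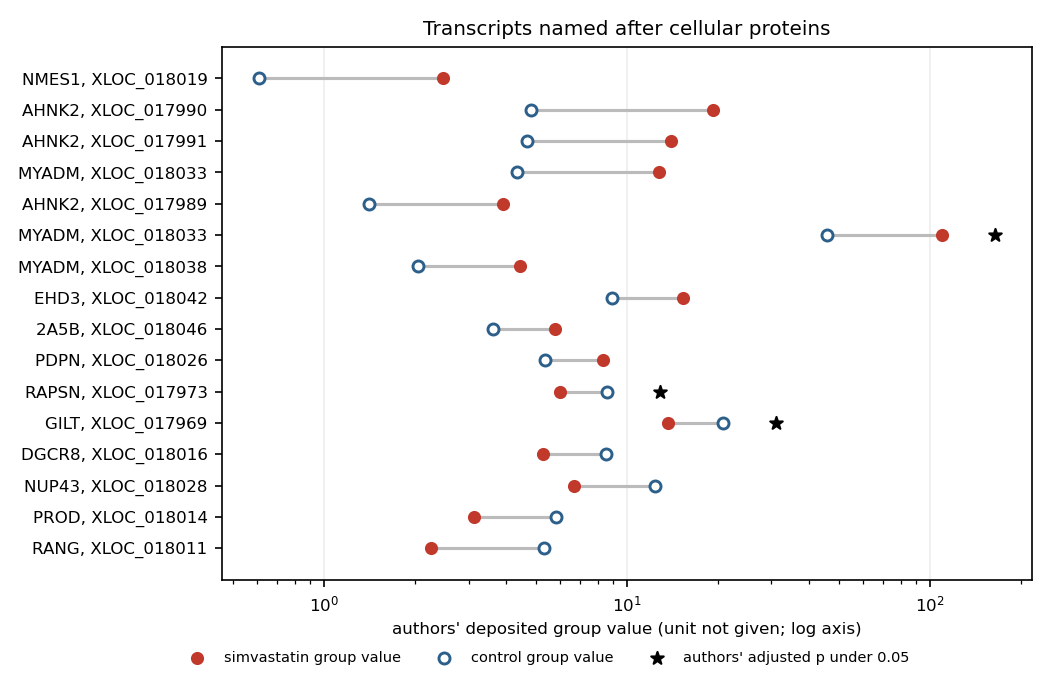
Group values of the 16 XLOC transcripts with cellular names that the authors called or that had an adjusted p under 0.05, on a log axis in a unit that is not given, ordered by the ratio, with red points for simvastatin and open blue points for control. The 10 higher transcripts are led by NMES1, AHNK2 and MYADM, and stars mark MYADM, RAPSN and GILT, the 3 with an adjusted p under 0.05.

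Several cellular names had nearly equal values in both groups. GSTP1, a glutathione transferase that detoxifies electrophiles, gave the highest XLOC value, 176.6 with simvastatin and 163.7 in control (adjusted p = 0.618 in the authors' deposited table). Its 5 transcripts, of 2 loci, summed to 316 with simvastatin and 300 in control. The ratios closest to 1 were those of ATG4A, a protease of autophagy, at 2.62 with simvastatin and 2.61 in control, and of a transcript named for the mitochondrial ribosomal protein S10, at 7.79 with simvastatin and 8.03 in control.

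The cellular names were mostly those of genes that the table also lists under Ensembl identifiers. Of the 43 names, 34 could be matched to an Ensembl gene in the table, 17 by the symbol and 17 by a synonym or the protein description, 7 had no such row and 2 could not be matched to 1 gene. The 7 without one were ATG4A, DGCR8, INTU, M4K2, NMES1, RAB3C and ZN420. The 2 were PGM1, which older and newer symbols give to different genes, and RTL8C, whose description is that of the protein 8B. Whether reads were shared between an XLOC row and the Ensembl rows of the same name is not stated, so the values of both are uncertain.

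Both sources gave like ratios for most names. Summed over transcripts, 29 of the 34 names had the same direction in the XLOC rows as in the Ensembl rows, and 23 had log2 ratios within 0.5 of each other. The median size of the difference was 0.25. Of the 22 names with an XLOC log2 ratio of at least 0.3 in size, 20 had the same direction. The summed XLOC value in control was within 2-fold of the summed Ensembl value for 23 of the 34, with a median ratio of 1.12. These rows come from the same libraries, so their likeness is not a replicate of the comparison.

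MYADM summed to 127 with simvastatin and 52.3 in control over its XLOC rows, and to 61.3 with simvastatin and 24.5 in control over the 4 Ensembl rows of Myadm. The log2 ratios were 1.28 and 1.32, yet the adjusted p of the 4 Ensembl rows ran from 0.926 to 0.995 in the authors' deposited table. AHNK2 summed to 37.1 with simvastatin and 10.9 in control, and the 9 Ensembl rows of Ahnak2 to 57.9 with simvastatin and 18.7 in control, with adjusted p from 0.052 to 0.216 in the authors' deposited table. Values for zinc transporter 4 (ZNT4) were 6.21 with simvastatin and 4.43 in control, and for its Ensembl gene Slc30a4 6.07 with simvastatin and 4.36 in control. Nup43 had log2 ratios of -0.88 and -0.89 in its XLOC and its Ensembl row. For RANG the Ensembl gene Ranbp1 was more abundant, at 22.4 with simvastatin and 44.7 in control, beside 2.25 with simvastatin and 5.32 in control for the XLOC row.

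The Ensembl rows named like both XLOC transcripts that fell did not pass the test. Ifi30, the Ensembl gene of GILT, stood at 1.08 with simvastatin and 3.18 in control (adjusted p = 0.684 in the authors' deposited table). For Rapsn the 2 Ensembl rows were on opposite sides, at 0.42 with simvastatin and 1.5 in control and at 7.14 with simvastatin and 5.38 in control (adjusted p = 0.332 and 0.989 in the authors' deposited table). Summed, the XLOC rows of RAPSN had a log2 ratio of -0.74 and its Ensembl rows 0.14, one of the 5 names with opposite directions. Of the 74 Ensembl rows of the 34 genes, the authors' deposited table gives 0 with an adjusted p under 0.05. Of all rows 2.09% are under it, so 74 rows are too few to show a lower share. At an unadjusted p under 0.05 the authors' deposited table gives 16 of the 74, which is 21.6%, beside 19.6% of all rows. Those 16 include all 9 Ensembl rows of 1 gene, Ahnak2 (p from 0.001 to 0.037 in the authors' deposited table). The share over the other genes is therefore lower.

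**Figure D4:**
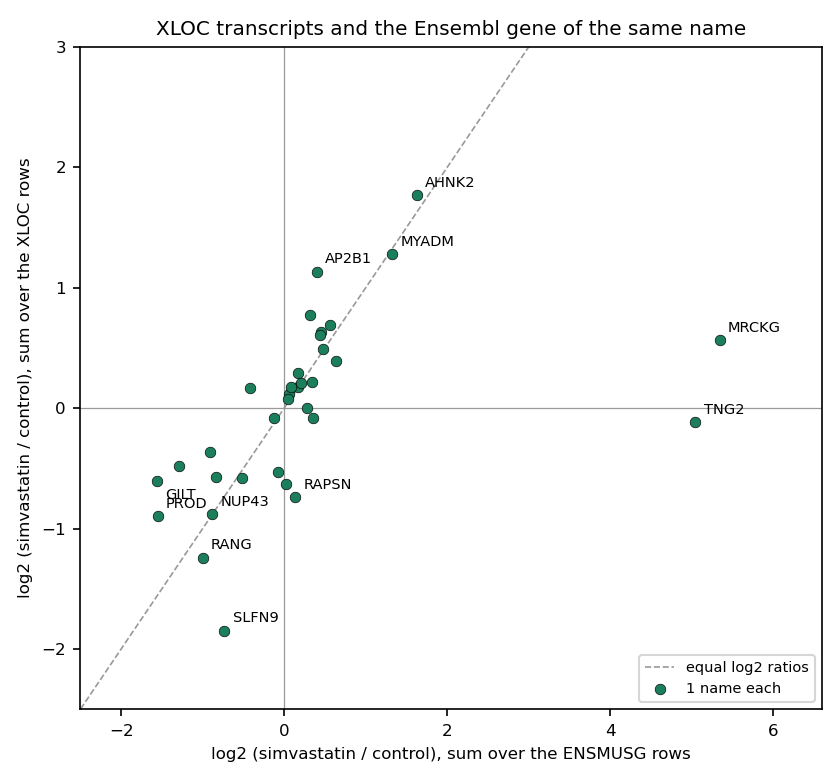
Log2 ratio of simvastatin to control summed over the XLOC rows of a name (vertical axis) against that summed over the Ensembl rows of the same gene (horizontal axis), with 1 point for each of 34 names and a dashed line where both are equal. Most points lie near the line, MRCKG and TNG2 lie far to the right because their single Ensembl rows have control values of 0.05 and 0.04, and RAPSN lies below 0 on the vertical axis only.

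For part of the names, neighbours in XLOC order matched Ensembl genes that lie close together. With the 34 matched names put in the order of their XLOC numbers, 20 fell into 7 runs in which the Ensembl genes of consecutive names start within 1 Mb of each other in the GENCODE annotation of GRCm38, the build that the submitters' processing notes name. One run held Mtch2, Celf1, Rapsn and Ndufs3, whose gene bodies span 90847155 to 91045729 on chromosome 2. Another held Ranbp1, Trmt2a, Prodh, Zdhhc8 and Tango2, from 18060357 to 18348103 on chromosome 16. A run of Cdc42bpg, Sf1 and Ppp2r5b lies from 6227765 to 6378030 on chromosome 19. The XLOC order within a run need not follow position: in XLOC order these genes start at 6306456, 6363690 and 6227765. Names of a run need not share a direction: in the run on chromosome 16 the XLOC log2 ratio was -1.24 for RANG and 0.61 for ZDHC8, a palmitoyltransferase. These are positions of the Ensembl genes, and the positions of the XLOC loci themselves are not given in the tables used here.

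The cells matched their labelled type. All 8 melanocytic markers fixed for this check were in the table and summed to 11465 with simvastatin and 8012 in control. Most of that sum came from Dct, Pmel, Gpnmb and Tyrp1, while Tyr stood at 50.2 with simvastatin and 53.1 in control and Sox10 at 45.0 with simvastatin and 44.1 in control. None of 4 fibroblast, 3 endothelial and 3 keratinocyte markers was listed. Of 5 leukocyte markers 1 was, the macrophage gene Cd68, at 0.93 with simvastatin and 0.37 in control.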

How the data were processed

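RNA was sequenced from B16.F10 cells, 3 samples with simvastatin and 3 without, with stranded libraries from total RNA per the labels' protocols. The submitters' processing notes name HISAT2 2.0.5, StringTie and the genome build GRCm38, also called mm10, without saying how each was used. How transcript models were merged, quantified, filtered, named and tested is not stated. The main table holds, per the file headers, 1 expression signal per group and transcript, a signed linear fold (recorded here as a score, since lower transcripts are negative), a p-value and an adjusted p-value printed to 3 decimals, and a yes or no call, all deposited by the authors. The signal's unit is not stated. Depth and the precision of single values are unknown. The limit of a count of 0 was set at 3 rows and covers counting only. For the XLOC rows with both values of at least 1, the ratio of the group values differed from the deposited fold by at most 0.548%.

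Only the authors' comparison was given, so nothing was refitted, and a transcript was counted as changed at the authors' adjusted p under 0.05 over all rows. It was printed as 0.05 for 2 XLOC transcripts, which were not counted. The labels call the samples biological replicates, and nothing says how the cultures were kept apart.

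Computed here, with Python 3.11.15, were log2 ratios of group values with no pseudocount (rows with both above 0), medians, interquartile ranges, sums per identifier and matches to Ensembl genes through symbols, RefSeq synonyms (GRCm38) and protein descriptions. The functions were tested on simulated data. The members and lists were chosen with earlier results of these data known. By rule, the transcripts past the threshold, the 5 most abundant and the 3 with ratios closest to 1 were named. A further place for transcripts at 0 in 1 group stayed empty. The name classes, the matching and the other transcripts named were chosen after their values were seen. Sequences and positions of these loci, and the enrichment, network and in silico tables, which hold no XLOC identifier, were not used here.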

Additional observations from a re-analysis of the deposited data

How the results depend on the processing

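No paired analysis was possible because the tables give 1 value per group and none per sample, and leaving out each replicate was not run for the same reason. The 4 XLOC transcripts with an adjusted p under 0.05 became 22 by the authors' call and 21 at an adjusted p under 0.1. At an unadjusted p under 0.05 they became 31. With the Benjamini-Hochberg adjustment recomputed from the deposited p-values, which are rounded to 3 decimals, they became 10. Of the Ensembl rows 2.08% had an adjusted p under 0.05. The same alternatives, in that order, gave 9.42%, 7.69%, 19.5% and 4.04% of the Ensembl rows. The difference of XLOC from Ensembl rows in log2 median level was 0.088, 0.079 for the larger group value, 0.68 against assembled Ensembl rows and -0.58 with transcripts summed per gene identifier. The difference in the percentage of rows at 0 was -0.652 points, -0.738 for values under 0.1, -1.30 against assembled Ensembl rows and 0.830 for values under 0.5. The difference in median log2 ratio was 0.20, and 0.19 with a pseudocount of 1, a mean of at least 1 or sums per gene identifier. The difference in interquartile range was 0.070, 0.053 with a pseudocount of 0.1, -0.027 with a pseudocount of 1, 0.0010 for means of at least 1, -0.21 against assembled Ensembl rows, and 0.26, 0.24 and 0.058 from means of 1, 3 and 10 upwards within bands. It turned sign, so no wider or narrower spread can be read from it. Alternatives chosen after seeing the data put the share of retroelement-named transcripts listed higher, 75.8%, at 78.6% per gene identifier, 75% for means of at least 3, 81.8% after division by the totals, 72.4% without IgE-binding protein and 72.2% with RTL8C added. They put the share of names with the same direction, 85.3%, at 90.9% for log2 ratios of at least 0.3 in size and 88.2% after division by the totals. The causes were not tested. Depth is unknown, so the error of low values could not be given.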
